A study of Mus musculus with 14 samples.

Results

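In control MC3T3-E1 cells, an osteoblast precursor line from mouse, 10 of 36 tested genes of the YAP, SRF and contractile actin programme fell between day 0 and day 5 (3.82% of all genes tested did). In cells labelled as MACF1 knockdown 3 rose (1.45% of all genes) and 0 fell in edgeR's quasi-likelihood test (0.548% of all genes), where 1 was lower at an unadjusted p under 0.05 and 0 in DESeq2. The difference between these changes passed for Acta2, Tpm1 and Cyr61 (0.8% of all genes). The genes described are 37 of the 24346 in the deposited count table: the transcriptional regulators YAP, TAZ, TEAD1, SRF and MRTF-A with their known target genes, and the actins, myosin chains, tropomyosins, calponins and other proteins of actin bundles. They were chosen by symbol, from knowledge of the pathway and with earlier results of these data known. All 37 were found, under the symbols Ctgf, Cyr61 and Mkl1 for the genes now also called Ccn2, Ccn1 and Mrtfa. A level of at least 10 counts in at least 2 libraries was required for testing, which 36 of them passed and Cnn1 did not.

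The study sequenced polyadenylated RNA of MC3T3-E1 cells in 14 libraries, to ask whether MACF1, a large protein that crosslinks actin filaments and microtubules, furthers osteoblast differentiation. The groups were control cells (NC in the sample titles) and cells labelled MACF1 knockdown (sh in the titles), each sampled on days 0, 3, 5 and 10; day 10 has a single library for either condition and the other days a pair. The event from which days are counted, the knockdown construct, the medium, and whether the line labelled knockdown is a clone or a pool are details that the sources used here leave unstated. Pairs are called biological replicates in the design text, but no source used here says that they came from separate cultures, and a p-value then speaks only of the spread among these libraries, possibly a technical one.

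YAP and TAZ are coactivators that shuttle between cytoplasm and nucleus. Kinases of the Hippo pathway hold them in the cytoplasm, and in spread cells with tense actin bundles they enter the nucleus and switch on target genes through TEAD proteins. SRF is a DNA-binding factor whose coactivators, the myocardin-related factors, are held in the cytoplasm by monomeric actin and released when actin polymerises, and its targets include actin, myosin light chain, tropomyosin and calponin genes. In mesenchymal cells both branches respond to cell shape, matrix stiffness and contact with neighbours, and TAZ is also known as a coactivator of the osteoblast factor RUNX2.

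To show the letters through which these factors are known to bind, the bases before each start site were searched in the RefSeq promoter table (GRCm38.p6), which held 36 promoters of 29 members. The search covered the 250 bases before each start on both strands, for the CArG box that SRF binds (a CC and a GG around a run of A or T) and for GGAATG, the core that TEAD proteins bind. A CArG box was found in 7 of the 36 promoters, those of Srf, Cnn2, Actg1, Myl9, Myl6 and both of Fhl2, and in 1.47% of all 32851 promoters in the table. GGAATG was found in 13 of the 36, of 12 members, and in 12.6% of all promoters. No promoter of a member held both as exact matches. Near matches with a differing base, such as a CArG-like run before Acta2, were not counted. A match is a run of letters and not a measured binding site. Tead1, Ctgf, Thbs1, Nuak2, Tgfb1i1, Actb, Actg2 and Tagln had no entry that could be searched.

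The stretches below are those around matches of 6 members whose values follow, 5′ to 3′ on the gene's strand, with the match in capitals (a CArG box in the first 4, GGAATG or its reverse complement in the last 2).
Srf, chr17:46556185-46556284, minus strand: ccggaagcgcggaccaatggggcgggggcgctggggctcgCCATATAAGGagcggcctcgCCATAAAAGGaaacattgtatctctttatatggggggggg
Cnn2, chr10:79988504-79988583, plus strand: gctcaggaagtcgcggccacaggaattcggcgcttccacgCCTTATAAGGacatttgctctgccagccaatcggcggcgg
Actg1, chr11:120348546-120348625, minus strand: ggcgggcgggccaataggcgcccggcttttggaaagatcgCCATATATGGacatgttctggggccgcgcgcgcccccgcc
Myl9, chr2:156775263-156775342, plus strand: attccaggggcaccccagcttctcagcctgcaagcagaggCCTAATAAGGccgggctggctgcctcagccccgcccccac
Cyr61, chr3:145650053-145650128, minus strand: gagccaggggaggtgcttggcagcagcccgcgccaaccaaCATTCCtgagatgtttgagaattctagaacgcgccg
Crim1, chr17:78200129-78200204, plus strand: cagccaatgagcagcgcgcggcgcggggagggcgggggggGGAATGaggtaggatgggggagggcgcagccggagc
Srf, which encodes the factor itself, held a pair of CArG boxes within this stretch, beginning 82 and 62 bases before its start. The boxes of Cnn2, Actg1 and Myl9 began 56, 90 and 161 bases before the start, and the GGAATG matches of Cyr61 and Crim1 began 103 and 79 bases before it. These starts are those of the RefSeq entries. For Srf, Cnn2, Actg1 and Myl9 the GENCODE gene begins further upstream, so their boxes lie nearer to that start.

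Macf1, the gene the labels name, was not called lower in the libraries labelled knockdown. Its level lay between 154 and 205 CPM (counts scaled to library size by the trimmed-mean method) in 6 control libraries, at 55.2 CPM in control day 3 replicate 2, and between 129 and 181 CPM in the 7 labelled knockdown. Averaged across days 0, 3 and 5 its log2 fold change came to 0.13 (SE 0.24, adjusted p = 0.724), and to −0.08 when that control library was dropped (SE 0.06, adjusted p = 0.274), so every direction given here is that of libraries labelled knockdown relative to control. Libraries held 8044687 to 23301514 counts. The smallest, control day 3 replicate 2, stood apart from its replicate: their log2 CPM correlated at 0.924 across genes, which are not independent replicates, against 0.987 to 0.989 in the other 5 pairs. The log ratio of the pair had a rank correlation (Spearman) with exon length of −0.444 across 9951 genes, where the other pairs gave −0.075 to 0.146. Over the 36 members alone that correlation was −0.563, and the other pairs gave −0.62 to −0.187, so among the members it was not particular to this pair. Among the members the log2 ratio of replicate 2 to replicate 1 ran from −2.25 for Thbs1 to 1.77 for Myl6, against at most 0.59 in size in any other pair. Results are therefore given from all 14 libraries and again without this library. The common dispersion was 0.0474 in the first fit and 0.0115 in the second, and 0.0115 as well when replicate 1 of that pair was dropped in its place.

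**Figure D1:**
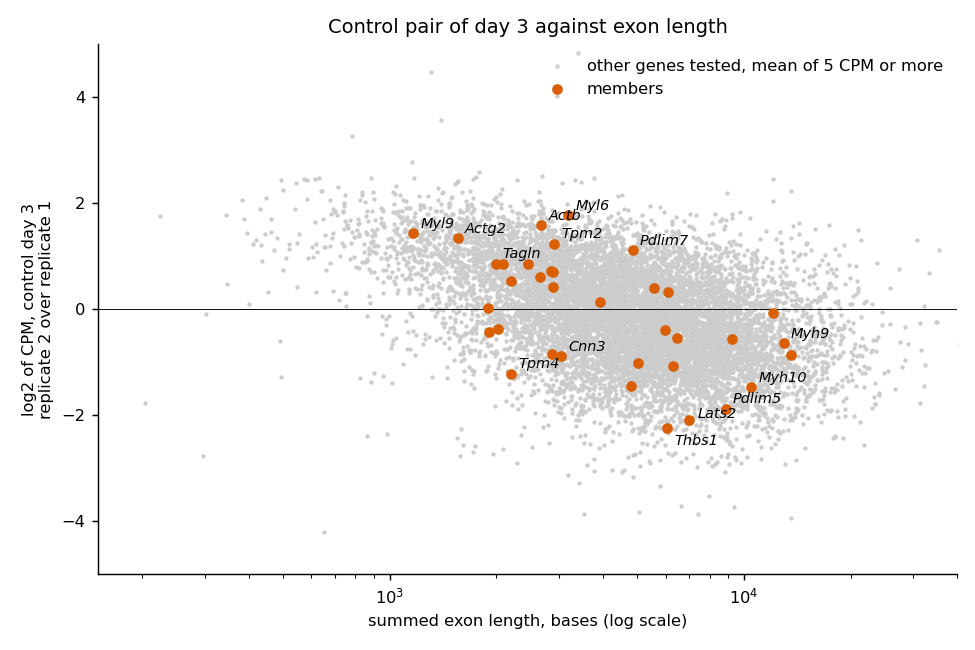
Log2 ratio of CPM between the 2 control libraries of day 3 (y) against summed exon length in bases on a log axis (x), for genes tested with a mean of at least 5 CPM (grey) and the 36 members tested (orange). Short members such as Myl9 and Actg2 lie above 0 and long ones such as Thbs1, Lats2 and Pdlim5 lie below, from 1.77 down to −2.25.

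Over all 37 genes together, the share of a library's counts was lower at later days in control, and in the libraries labelled knockdown it was lower only at day 10. The members took 2.78% and 2.82% of control counts on day 0, 1.86% and 1.87% on day 3, 1.62% and 1.64% on day 5, and 1.51% on day 10. In the libraries labelled knockdown they took 2.71% and 2.58%, 3.06% and 2.99%, 2.99% and 2.77%, and 2.02%. The ranges did not overlap at any of days 0, 3 and 5, with control higher at day 0 and lower at days 3 and 5. Most of these reads came from a few abundant genes, since tropomyosins and caldesmon alone gave 0.627% to 1.70% of a library and the factors 0.020% to 0.052%. In bulk RNA, fewer cells expressing a gene and less RNA per cell cannot be told apart.

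Averaged over days 0, 3 and 5, 12 of the 36 members were called higher in the libraries labelled knockdown and 6 lower (adjusted p under 0.05 in the quasi-likelihood test of edgeR, adjusted by Benjamini-Hochberg across all genes). Of all 13130 genes tested, 15.0% were called higher and 11.9% lower. Those higher were Wwtr1, Mkl1, Axl, Fhl2, Tgfb1i1, Acta2, Actg2, Cnn3, Myh9, Tpm1, Tpm2 and Cald1, and those lower were Yap1, Ankrd1, Thbs1, Nuak2, Tagln and Tagln2. The median log2 fold change of the members was 0.19 and that of all genes 0.00, with a range over members from −1.77 for Thbs1 to 1.14 for Tpm2. With control day 3 replicate 2 left out, 18 were higher and 8 lower, with every one of the 18 calls kept, against 24.9% and 22.2% of genes tested in that fit. Without control day 3 replicate 1, 20 were higher.

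For some members the average hides a change of direction between days. With all 14 libraries Acta2 and Cyr61 were called lower at day 0 and higher at day 5. Thbs1 and Tagln, also called lower at day 0, were called higher on no day. Fhl2 and Myh9 lay above control on each of days 0, 3 and 5. At day 0, 5 members were called lower (Ctgf, Cyr61, Thbs1, Acta2 and Tagln; 2.68% of all genes) and 0 higher in edgeR's quasi-likelihood test (4.41% of all genes), where 3 were higher at an unadjusted p under 0.05 and 0 in DESeq2. At day 3, 8 were called higher and 1 lower, against 7.06% and 5.52% of genes. At day 5, 8 were called higher (5.32% of genes) and 0 lower in the same test (2.47% of genes), where 3 were lower at an unadjusted p under 0.05 and 1 in DESeq2. The members' median log2 fold change was −0.27 at day 0, 0.53 at day 3 and 0.36 at day 5, beside 0.03, 0.01 and 0.01 for all genes. The 3 days share no library.

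Without control day 3 replicate 2 the same order of days stood with more calls. At day 0, 18 members were lower and 3 higher (12.9% and 15.8% of genes). At day 3, 19 were higher and 4 lower (11.9% and 9.18% of genes), with the day 3 call of Ctgf lost. At day 5, 19 were higher and 4 lower (16.6% and 14.9% of genes). Without control day 3 replicate 1 the lower count at day 0 was also 18 and the higher count at day 5 also 19, so that these gains came with either library of that pair left out. Leaving out any 1 library of day 0 or day 5 instead brought the lower calls of day 0 down to between 1 and 3. The higher calls of day 5 came to 2 or 3 without any 1 library of that day, those of day 3 came to 3 or 4 without any 1 library of days 0 or 5, and leaving out one of the libraries labelled knockdown of day 3 brought the higher calls of that day down to 0 or 1.

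**Figure D2:**
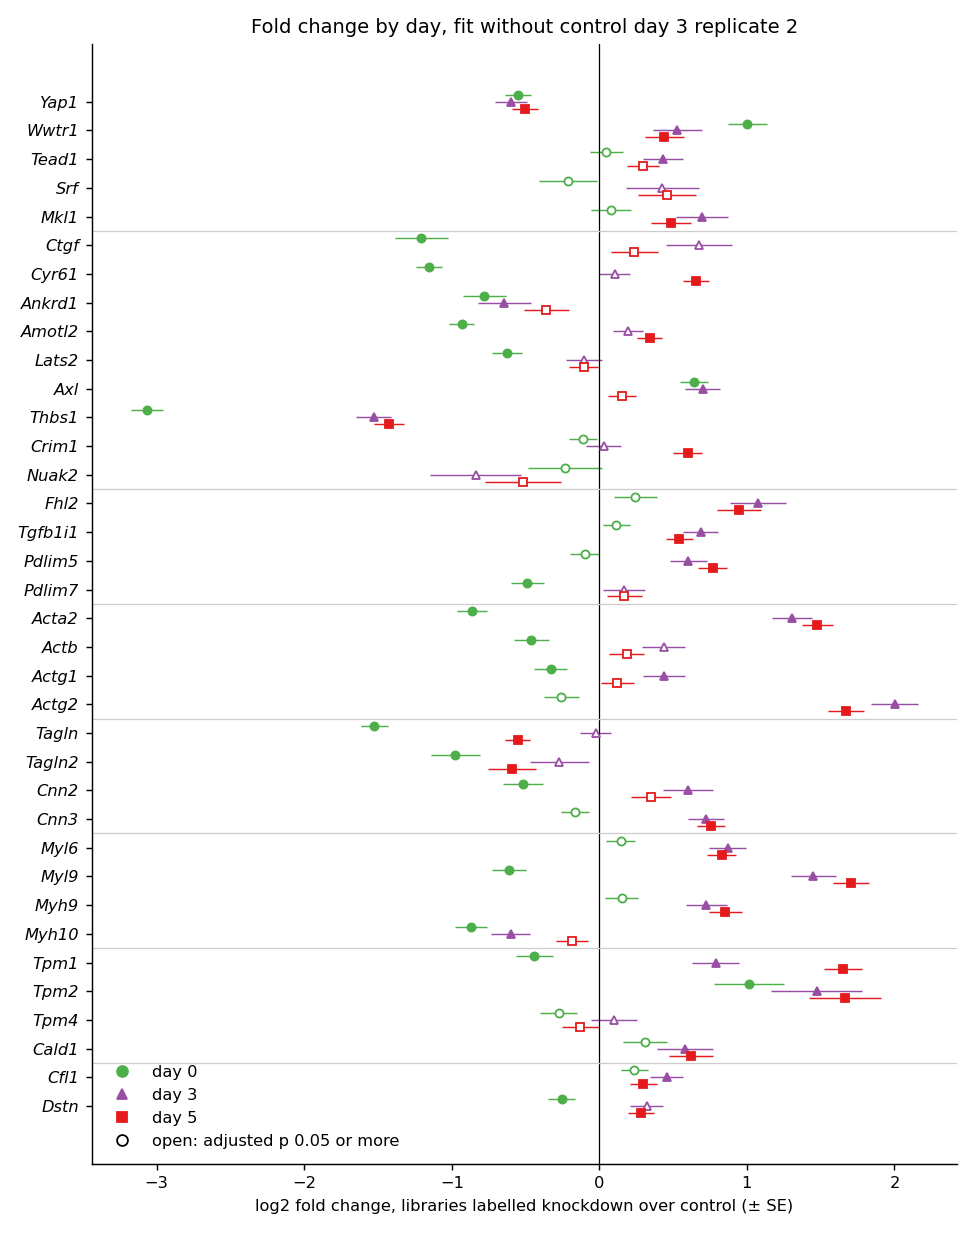
Log2 fold change of the libraries labelled knockdown over control (x, with bars of 1 standard error) for the 36 members tested, by day, from the fit without control day 3 replicate 2; open symbols did not pass an adjusted p of 0.05. Most contractile genes lie left of 0 at day 0 and right of 0 at days 3 and 5, as for Acta2 (−0.86, 1.31 and 1.48) and Myl9 (−0.61, 1.45 and 1.71).

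Levels in single libraries show which members kept 1 side throughout. On CPM, both libraries labelled knockdown lay above both control libraries at each of days 0, 3 and 5 for 8 members (Wwtr1, Mkl1, Axl, Fhl2, Tgfb1i1, Myh9, Tpm2 and Cald1) and below them for 2 (Ankrd1 and Tagln2). Over all genes tested this held for 13.7% above and 9.55% below.

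The 2 coactivators of the Hippo branch stood on opposite sides. Yap1 (GRCm38 chr9:7931999-8004596, minus strand), which encodes YAP, was at 113 and 108 CPM in the control pair of day 0, 107 and 72.0 on day 3, 102 and 95.5 on day 5, and 93.6 on day 10. Those labelled knockdown gave 73.6 and 76.8, 73.8 and 67.2, 72.3 and 67.3, and 68.4 CPM. These 7 values lay below every control library except replicate 2 of day 3, which lay among those of its day. The average log2 fold change came to −0.46 (SE 0.11, adjusted p = 0.0137), and without that library −0.55 (adjusted p = 1.02e-05).

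Wwtr1 (chr3:57455649-57575910, minus strand), which encodes TAZ, was at 113 and 96.8 CPM in the control pair of day 0, 121 and 43.6 on day 3, 160 and 136 on day 5, and 215 on day 10. Under the knockdown label the values were 234 and 185, 182 and 167, 215 and 189, and 348 CPM. It was above both control libraries at each of days 0, 3 and 5, its log2 fold change averaging 0.84 (SE 0.21, adjusted p = 0.0163), or 0.66 (adjusted p = 6.33e-05) without control day 3 replicate 2. With the replicate number as a block its value at day 3 alone passed as well (1.17, adjusted p = 0.0442, against 1.08 and 0.0837 without the block). Per transcript length, TAZ and YAP transcripts were near each other in control at day 0 (20.5 ± 1.64 and 24.7 ± 0.141 RPKM, SD, n = 2). In the libraries labelled knockdown of that day the TAZ transcript was higher (42.1 ± 6.36 against 17.3 ± 0.728 RPKM).

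Of the other factors, Mkl1, which encodes the SRF coactivator MRTF-A, was called higher on average (log2 fold change 0.37, SE 0.11, adjusted p = 0.0347). Its control libraries stood at 44.4 and 46.7 CPM on day 0 and at 25.2 and 34.2 on day 5, and those labelled knockdown stood at 48.3 and 47.6, then 40.5 and 42.8 CPM. The control change did not pass with all 14 libraries (−0.62, adjusted p = 0.0845). Nor did it pass with relative log expression or upper quartile scaling (adjusted p = 0.0869 and 0.0899) or with no filter on low counts (0.215). With limma on log2(RPKM + 1) and log2(RPKM + 0.1) the adjusted p was 0.0987 and 0.103. The change was −0.42 without control day 5 replicate 1 and −0.85 without replicate 2 of that day. It passed with the replicate block (−0.63, adjusted p = 0.0378), in DESeq2 (adjusted p = 0.0369), and without either control library of day 3 (adjusted p = 0.00508 and 0.00581 without replicate 1 and 2). Srf, at 32.1 to 70.8 CPM, did not pass on average (0.15, SE 0.14, adjusted p = 0.465), and the 2 conditions overlapped at days 0 and 3. Tead1, which encodes a DNA-binding partner of YAP and TAZ, had a value of 0.38 (SE 0.15, adjusted p = 0.0777) and passed without control day 3 replicate 2 (0.26, adjusted p = 0.00877).

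Target genes of YAP and TAZ did not move as one. Of 9, 1 was called higher and 3 lower on average (15.0% and 11.9% of all genes), with a median log2 fold change of −0.05. At day 0, 3 were called lower (2.68% of all genes) with a median of −0.79, and at day 5, 1 was called higher (5.32% of all genes) with a median of 0.16.

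Ctgf and Cyr61, which encode secreted matricellular proteins and are the most used readouts of YAP and TAZ, started low in the libraries labelled knockdown. Ctgf was at 11.3 and 12.4 CPM in the control pair of day 0, 5.91 and 3.09 on day 3, 14.2 and 13.1 on day 5, and 10.0 on day 10. The libraries labelled knockdown read 5.00 and 5.22, 8.14 and 10.9, 15.9 and 16.5, and 15.2 CPM. Below both controls at day 0, it was above both at days 3 and 5. Its log2 fold change was −1.21 at day 0 (SE 0.28, adjusted p = 0.0261), 1.02 at day 3 (SE 0.28, adjusted p = 0.0449) and 0.25 at day 5 (adjusted p = 0.671). Day 3 no longer passed with control day 3 replicate 2 left out (0.67, adjusted p = 0.0522) or with the replicate block (1.01, adjusted p = 0.0532).

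Cyr61, whose promoter stretch is printed above, was at 261 and 279 CPM in the control pair of day 0, 165 and 127 on day 3, 129 and 125 on day 5, and 233 on day 10. The libraries labelled knockdown held 117 and 126, 171 and 183, 202 and 202, and 162 CPM. Control was higher at day 0 and lower at days 3 and 5, with no overlap at any of these days. The log2 fold change was −1.16 at day 0 (SE 0.17, adjusted p = 0.00279), 0.28 at day 3 (adjusted p = 0.275) and 0.67 at day 5 (SE 0.17, adjusted p = 0.0414), and the average over days was −0.07 (adjusted p = 0.639).

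Thbs1, which encodes thrombospondin 1, another secreted matricellular protein, had the lowest fold change of all members. It was at 225 and 220 CPM in the control pair of day 0, 105 and 21.6 on day 3, 130 and 126 on day 5, and 114 on day 10. Those labelled knockdown gave 28.0 and 25.0, 38.5 and 34.0, 50.5 and 45.3, and 35.4 CPM. Apart from replicate 2 of day 3, every control library was above every one labelled knockdown. The log2 fold change was −3.07 at day 0 (SE 0.54, adjusted p = 0.00732) and −1.77 on average (SE 0.30, adjusted p = 0.00213). At day 3 the direction depended on which control library was kept, at −0.82 with both (adjusted p = 0.289), −1.53 without replicate 2 (adjusted p = 8.48e-06) and 0.75 without replicate 1.

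Ankrd1, which encodes a cardiac ankyrin repeat protein and is a target of both branches, was also lower. It was at 31.2 and 28.0, 20.2 and 32.9, and 18.9 and 18.6 CPM on days 0, 3 and 5 of control, against 19.2 and 15.0, 14.0 and 11.8, and 14.3 and 15.1 CPM under the knockdown label. The groups did not overlap on any of these days, and the average log2 fold change came to −0.72 (SE 0.14, adjusted p = 0.0047). Nuak2, which encodes a kinase acting on myosin phosphatase, was called lower at the low level of 3.14 to 7.64 CPM (−0.55, SE 0.16, adjusted p = 0.0297).

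Amotl2, which encodes an angiomotin that holds YAP in the cytoplasm, fell in control from day 0 to day 5 (−1.27, SE 0.28, adjusted p = 0.0225), and its course in the other condition did not pass (0.02, adjusted p = 0.994). It was at 382 and 368 CPM in the control pair of day 0, 176 and 83.8 on day 3, and 159 and 152 on day 5. In the libraries labelled knockdown it lay between 193 and 205 CPM over these days. The differences between conditions at days 0 and 5 did not pass with all 14 libraries (−0.94 and 0.35, adjusted p = 0.0799 and 0.546). That of day 0 did not pass with limma on log2(RPKM + 1) or log2(RPKM + 0.1) (adjusted p = 0.196 and 0.21) or with the replicate block (0.0765). That of day 5 did not pass in DESeq2 or with no filter on low counts (adjusted p = 0.561 and 0.743). When control day 3 replicate 2 was dropped both passed (−0.93 and 0.34, adjusted p = 8.76e-06 and 0.00879), as they did without its replicate or without day 3, and that of day 0 passed in DESeq2 and with no filter on low counts. Axl, which encodes a receptor tyrosine kinase, was the 1 target of 9 with a value above 0 at day 0, with levels of 138 and 140 CPM in control against 212 and 222 CPM. It was higher on average (0.64, SE 0.16, adjusted p = 0.0146) and at day 3 (1.12, SE 0.28, adjusted p = 0.0309). Lats2 and Crim1 did not pass on average or on any day with all 14 libraries, and 41.19% of the 50-base stretches in transcripts of Lats2 also occur in another gene. Lats2, a kinase of the Hippo cascade and itself a target, ranged over 11.3 to 60.6 CPM in control and 36.1 to 46.7 CPM under the knockdown label, and Crim1, a transmembrane protein gene, over 20.35 to 46.5 CPM and 32.2 to 45.0 CPM.

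**Figure D3:**
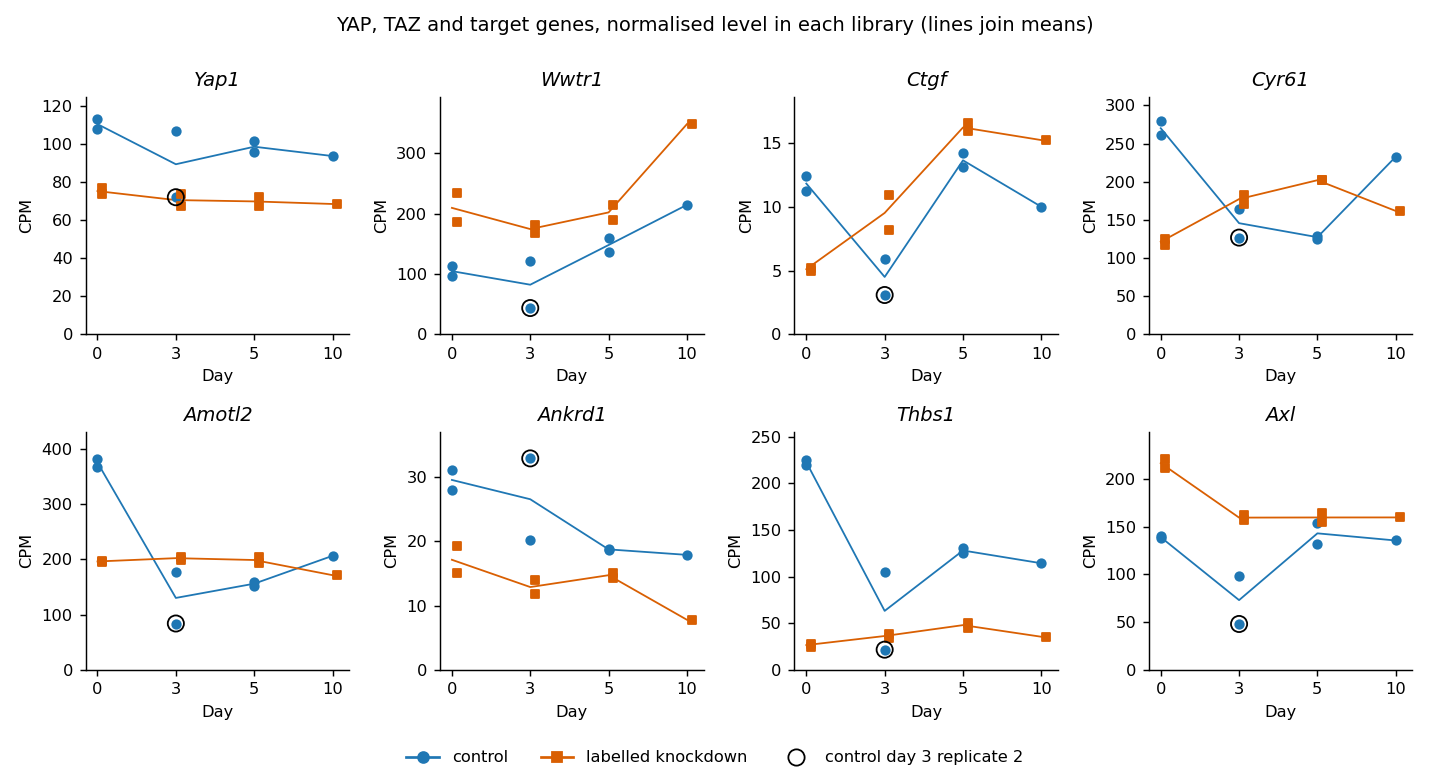
CPM in each library for Yap1, Wwtr1 and 6 target genes by day, with days evenly spaced; circles are control, squares are libraries labelled knockdown, lines join group means and a ring marks control day 3 replicate 2. Yap1, Ankrd1 and Thbs1 lie lower in the libraries labelled knockdown, Wwtr1 and Axl higher, and the lines of Ctgf, Cyr61 and Amotl2 cross between days 0 and 5.

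Among the LIM-domain proteins, 2 of 4 were called higher on average and none lower, against 15.0% and 11.9% of all genes. Fhl2, which encodes a LIM-only coactivator known from both branches, was at 39.8 and 47.6, 23.5 and 23.7, and 25.0 and 25.1 CPM in control at days 0, 3 and 5. Under the knockdown label the values were 47.7 and 55.7, 43.6 and 55.7, and 44.5 and 52.9 CPM, above both controls on each day. Its log2 fold change was 1.07 at day 3 (SE 0.19, adjusted p = 0.00766) and 0.96 at day 5 (SE 0.19, adjusted p = 0.0119), against 0.24 at day 0 (adjusted p = 0.549). Tgfb1i1, which encodes the focal adhesion protein Hic-5, was higher on average (0.38, SE 0.10, adjusted p = 0.0181), at 35.2 to 68.4 CPM in control and 52.6 to 73.6 CPM under the knockdown label. Pdlim5 and Pdlim7, which encode PDZ and LIM proteins of actin bundles, did not pass with all 14 libraries, whereas in the fit without control day 3 replicate 2 Pdlim5 was higher at days 3 and 5 (0.60 and 0.77, adjusted p = 0.00548 and 0.000158).

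Of the 4 actin genes, the isoforms of smooth muscle type were called higher on average and the cytoplasmic ones, Actb and Actg1, were not. On CPM, Actb and Actg1 also lay below both control libraries at day 0 and above both at day 5. Acta2 (chr19:34241090-34255590, minus strand), which encodes smooth muscle alpha-actin, was at 1090.0 and 1113 CPM in the control pair of day 0, 552 and 799 on day 3, 328 and 352 on day 5, and 242 on day 10. The libraries labelled knockdown read 581 and 629, 1287 and 1448, 902 and 1002, and 371 CPM. The conditions did not overlap on any replicated day, with control higher at day 0 and lower at days 3 and 5. The log2 fold change was −0.86 at day 0 (SE 0.21, adjusted p = 0.0332), 1.02 at day 3 (SE 0.21, adjusted p = 0.015) and 1.49 at day 5 (SE 0.21, adjusted p = 0.00198).

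Actg2, which encodes smooth muscle gamma-actin, also passed at days 3 and 5. It was at 20.35 and 19.96 CPM in the control pair of day 0, 11.7 and 30.4 on day 3, 12.8 and 12.7 on day 5, and 9.59 on day 10. The libraries labelled knockdown held 16.1 and 17.6, 45.0 and 48.9, 38.4 and 43.6, and 21.2 CPM. It was above both controls at days 3 and 5, with log2 fold changes of 1.18 (SE 0.34, adjusted p = 0.0497) and 1.68 (SE 0.35, adjusted p = 0.0153), and its value at day 0 did not pass (−0.26, adjusted p = 0.766).

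Actb and Actg1, the cytoplasmic actins, had mean log2 fold changes of −0.28 (SE 0.23, adjusted p = 0.4) and −0.03 (SE 0.13, adjusted p = 0.876), both of which turned positive without control day 3 replicate 2 (0.05 and 0.08, adjusted p = 0.575 and 0.401). In control at day 0 they were at 1297 ± 202 and 1512 ± 146 RPKM (SD, n = 2) and at day 5 at 690 ± 53.9 and 870 ± 91.6 RPKM, against 966 ± 96.2 and 1233 ± 84.7, then 794 ± 15.6 and 958 ± 21.7 RPKM in the libraries labelled knockdown. Values of Actg1 carry a further limit, since 37.38% of the 50-base stretches in its transcripts occur in other genes, Actb and Acta2 among them.

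Transgelins and calponins, which bind along actin filaments, gave calls in both directions. Tagln, which encodes the smooth muscle protein SM22, was at 65.7 and 63.5 CPM in the control pair of day 0, 77.5 and 141 on day 3, 93.1 and 95.8 on day 5, and 64.8 on day 10. Those labelled knockdown gave 21.7 and 23.2, 74.1 and 78.7, 65.1 and 64.3, and 36.2 CPM. Below control at days 0 and 5 and overlapping it at day 3, it had a log2 fold change of −1.53 at day 0 (SE 0.25, adjusted p = 0.00472) and −0.86 on average (SE 0.14, adjusted p = 0.00171). Its change from day 0 to day 5 was 0.55 in control, which did not pass (adjusted p = 0.222), and 1.53 in the libraries labelled knockdown (SE 0.25, adjusted p = 0.0143). Tagln overlaps Pcsk7 on the opposite strand, and how the counting used strand is not given in the sources used here.

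Tagln2, the broadly expressed transgelin, was lower in the libraries labelled knockdown on each day, at 120 to 177 CPM against 187 to 339 CPM in control over days 0, 3 and 5 (average −0.77 on the log2 scale, SE 0.16, adjusted p = 0.00708). With the replicate block it was also lower at days 0 and 3 alone (−0.98 and −0.73, adjusted p = 0.0153 and 0.0386). Cnn3, the calponin of non-muscle cells, was at 1223 and 1286 CPM in the control pair of day 0, 696 and 376 on day 3, and 621 and 658 on day 5. In the libraries labelled knockdown it lay at 1076 to 1171 CPM over these days, and it was higher on average (0.57, SE 0.15, adjusted p = 0.0187) and at day 3 (1.1, SE 0.26, adjusted p = 0.0265). Cnn2, at 362 to 658 CPM in control and 345 to 597 CPM under the knockdown label, gave no call with all 14 libraries. Cnn1, the calponin of differentiated smooth muscle, had 0 to 0.61 CPM in every library.

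Of the myosin genes, Myl9, which encodes a regulatory light chain of smooth muscle and non-muscle myosin, had the largest difference at day 5 of all members. It was at 406 and 418 CPM in the control pair of day 0, 151 and 408 on day 3, 96.9 and 117 on day 5, and 101 on day 10. Under the knockdown label the values were 260 and 279, 379 and 445, 329 and 371, and 181 CPM. At day 3 the high control value was replicate 2, and the groups overlapped there, while at days 0 and 5 they did not. The log2 fold change was −0.61 at day 0 (adjusted p = 0.41), 0.56 at day 3 (adjusted p = 0.302) and 1.71 at day 5 (SE 0.37, adjusted p = 0.0196). With the replicate block the average over days passed (0.58, adjusted p = 0.045, against 0.55 and 0.0749 without it). With control day 3 replicate 2 left out all 3 days passed, at −0.61, 1.45 and 1.71 (adjusted p = 0.00221, 7.79e-05 and 1.38e-06).

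Myh9, the heavy chain of non-muscle myosin IIA, was higher on average (0.68, SE 0.13, adjusted p = 0.00462). It was at 2119 and 2097, 1028 and 658, and 942 and 942 CPM on days 0, 3 and 5 of control, against 2475 and 2204, 1844 and 1560.0, and 1755 and 1668 CPM under the knockdown label. The groups did not overlap on any of these days, and the calls of single days were at day 3 (1.01, adjusted p = 0.0231) and day 5 (0.86, adjusted p = 0.0486). Myh10, the heavy chain of non-muscle myosin IIB, was not called with all 14 libraries and was lower on average once control day 3 replicate 2 was left out (−0.55, adjusted p = 3.84e-05). The light chain gene Myl6 lay in the libraries labelled knockdown at 1161 to 1232 CPM over days 0 to 5, and in control it was at 1127 and 1010, 643 and 2191, and 696 and 645 CPM. Its day 3 value was −0.27 with both control libraries, 0.87 without replicate 2 (adjusted p = 0.000659) and −0.90 without replicate 1.

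Tropomyosins, which wind along actin filaments and set which myosins bind, held the largest average rise. Tpm2 was at 842 and 628 CPM in the control pair of day 0, 516 and 1212 on day 3, 512 and 386 on day 5, and 646 on day 10. The libraries labelled knockdown read 1754 and 1214, 1655 and 1213, 1608 and 1258, and 1448 CPM. It was above both controls on each replicated day, at day 3 by about 1 CPM over replicate 2, its log2 fold change averaging 1.14 (SE 0.22, adjusted p = 0.00485).

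Tpm1 (chr9:67022590-67049406, minus strand) changed by day. It was at 5112 and 4622 CPM in the control pair of day 0, 4513 and 3095 on day 3, 2828 and 2578 on day 5, and 1850.0 on day 10. The libraries labelled knockdown held 3783 and 3377, 8260.0 and 7342, 9157 and 7960.0, and 3761 CPM. Below control at day 0 (−0.44, adjusted p = 0.337), it was higher at day 3 (1.04, SE 0.23, adjusted p = 0.0225) and day 5 (1.66, SE 0.24, adjusted p = 0.00209). Tpm4, at 343 to 1169 CPM in control and 763 to 914 CPM under the knockdown label, did not pass on average or on any day in either fit. Cald1, which encodes caldesmon, a regulator of actin and myosin contact, was higher on average (0.52, SE 0.13, adjusted p = 0.0131). With the replicate block Cald1 also passed at days 3 and 5 (0.61 and 0.63, adjusted p = 0.0348 and 0.0353).

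The genes of actin turnover, Cfl1 for cofilin and Dstn for destrin, showed small differences. Neither passed on average with all 14 libraries (0.20 and 0.19, adjusted p = 0.28 and 0.228). Cfl1 passed without control day 3 replicate 2 (0.33, adjusted p = 0.000517), and it was above both controls at days 0 and 5. Their proteins sever and depolymerise actin filaments.

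**Figure D4:**
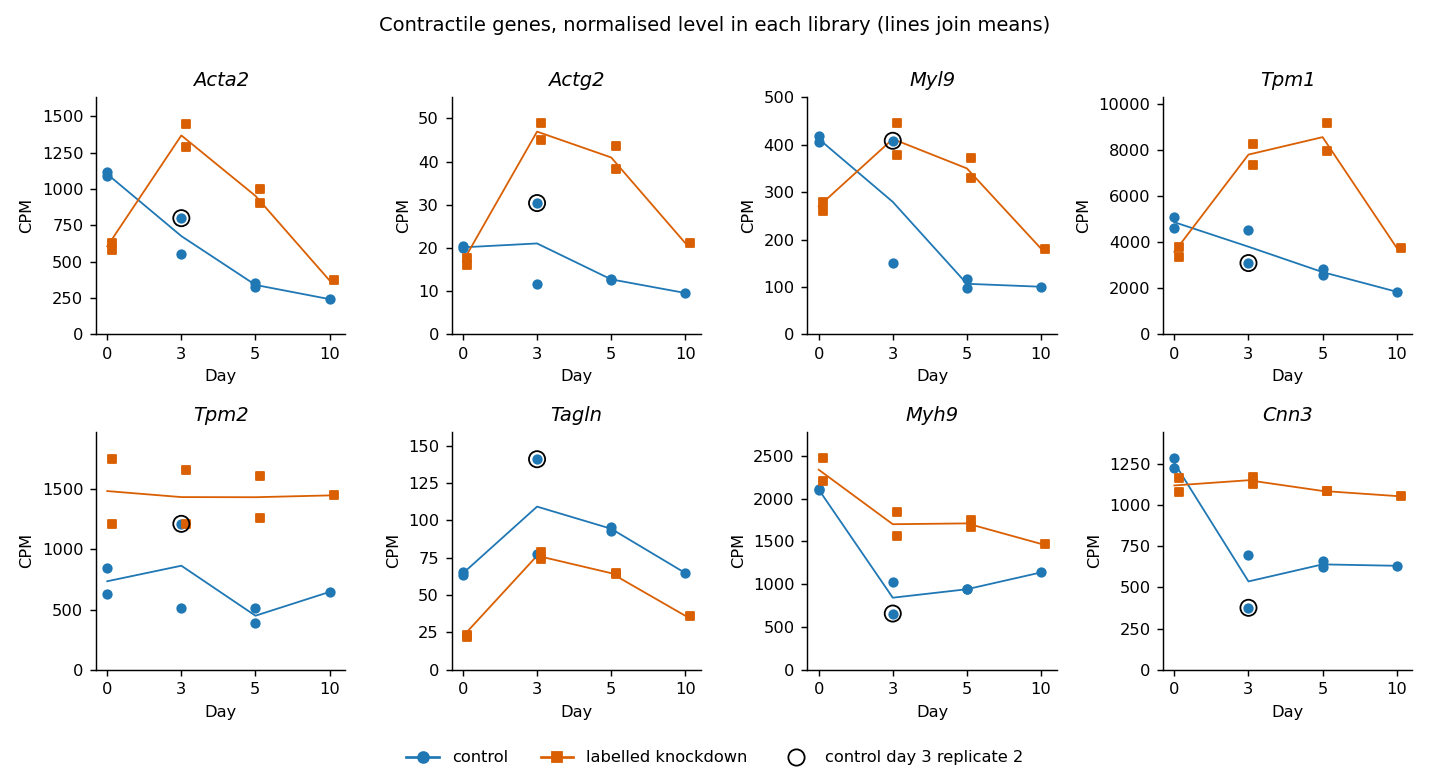
CPM in each library for 8 contractile genes by day, with days evenly spaced; circles are control, squares are libraries labelled knockdown, lines join group means and a ring marks control day 3 replicate 2. Acta2, Actg2, Myl9 and Tpm1 are lower than control under the knockdown label on day 0 and higher on day 5, Tpm2 is higher on each day and Tagln is lower at days 0 and 5.

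With time in control, 10 members fell from day 0 to day 5 and 0 rose in edgeR's quasi-likelihood test, against 3.82% and 4.32% of all genes. At an unadjusted p under 0.05, 1 was higher, and DESeq2 called 0 higher. The members that fell were Cyr61, Amotl2, Crim1, Fhl2, Tgfb1i1, Acta2, Cnn3, Myl9, Myh9 and Dstn, with changes from −0.80 for Fhl2 and Dstn to −1.95 for Myl9 on the log2 scale. In all, 32 of 36 members had a value below 0, with a median of −0.69 beside 0.00 for all genes. With control day 3 replicate 2 left out, whose spread enters the fit although day 3 is not compared, 24 fell and 2 (Wwtr1 and Tagln) rose, against 14.5% and 17.0% of genes. Without control day 3 replicate 1, 24 fell as well, and without any 1 library of control days 0 or 5 the count was 1 or 2. With the replicate block 15 fell, the added ones being Srf, Mkl1, Actg1, Tpm1 and Cald1 (adjusted p = 0.0472, 0.0378, 0.0254, 0.0151 and 0.0182).

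In the libraries labelled knockdown, 3 members rose from day 0 to day 5 (Ctgf, Tagln and Tpm1, by 1.67, 1.53 and 1.26) and 0 fell in edgeR's quasi-likelihood test, against 1.45% and 0.548% of all genes. At an unadjusted p under 0.05, 1 was lower, and DESeq2 called 0 lower. The median of the members was −0.08, with 22 of 36 below 0. With control day 3 replicate 2 left out, 9 rose and 3 fell (Axl, Tgfb1i1 and Myh9), against 8.01% and 7.56% of genes, and without its replicate 8 rose. Leaving out 1 of the libraries labelled knockdown of days 0 or 5 brought the rises to 0.

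**Figure D5:**
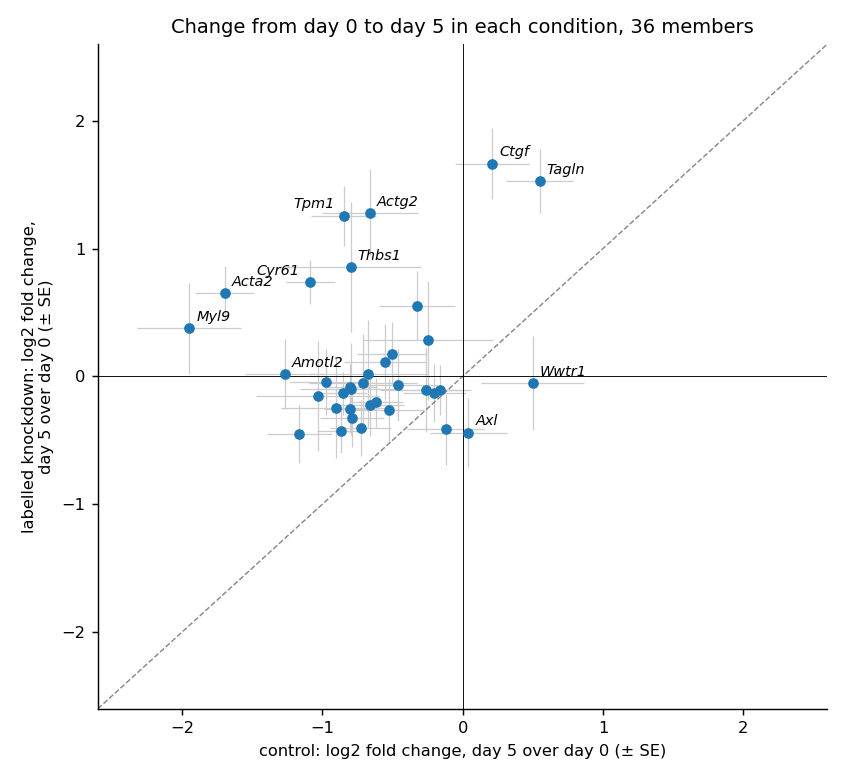
Log2 fold change from day 0 to day 5 in control (x) and in the libraries labelled knockdown (y) for the 36 members tested, with bars of 1 standard error and a dashed line of equal change. Of the 36, 33 lie above the line, with Acta2, Myl9, Tpm1 and Actg2 farthest from it.

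The difference between these 2 courses was itself tested. It passed as higher in the libraries labelled knockdown for 3 members, Acta2 (2.35, SE 0.30, adjusted p = 0.00374), Tpm1 (2.11, SE 0.33, adjusted p = 0.0132) and Cyr61 (1.82, SE 0.24, adjusted p = 0.00516), against 0.8% of all genes. It passed as lower for 0 in edgeR's quasi-likelihood test, with 0 at an unadjusted p under 0.05 and 0 in DESeq2, against 0.564% of genes. Values for Myl9, Actg2 and Ctgf were 2.33, 1.94 and 1.46 and did not pass (adjusted p = 0.0674, 0.114 and 0.137, in that order). The median of the 36 was 0.67, beside −0.02 for all genes, and 33 were above 0.

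Without control day 3 replicate 2 the difference passed for 20 members as higher and 1 as lower, against 5.07% and 5.0% of genes. The 20 included 3 of 4 actins, 3 of 4 transgelins and calponins, 4 of 4 myosins and 6 of 9 YAP and TAZ targets, and none of the 5 factors, and the 1 lower was Axl (−0.49, adjusted p = 0.0373). The same counts came without control day 3 replicate 1. Without control day 5 replicate 2 or knockdown day 0 replicate 1, 1 member passed as higher. Both groups of day 0 enter this difference and the comparison at day 0. Both groups of day 5 enter this difference and the comparison at day 5.

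At day 10, with 1 library per condition and no test, Actg2, Tpm1 and Tpm2 were more than 2-fold higher in the library labelled knockdown and Ankrd1 and Thbs1 more than 2-fold lower, as were 8.17% and 4.44% of all genes. The log2 ratios were 1.13, 1.02 and 1.16 for the first 3 and −1.19 and −1.69 for the other two. Acta2 had a ratio of 0.62 and Myl9 one of 0.85, and Cyr61, higher at day 5, had −0.53. Cnn1 had 0 counts in the control library of that day, and no ratio is given.

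Genes of the same pathways outside the 37 were read from lists chosen by name, with earlier results of these data known. Of 23 tested of 25 other SRF and MRTF factors and targets, 13 were called higher and 1 lower on average, against 15.0% and 11.9% of all genes, with a median log2 fold change of 0.44. Mylk, which encodes myosin light chain kinase, was at 31.2 and 32.6 CPM in control at day 5 against 137 and 137 CPM, and was higher (mean over days 1.07, SE 0.14, adjusted p = 0.000431). Filip1l, Lima1 and Lmod1, the last 2 encoding the actin-binding proteins EPLIN and leiomodin 1, were also higher (1.05, 0.88 and 0.87, adjusted p = 0.00726, 0.00957 and 0.00517).

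Of 15 tested of 16 other YAP and TAZ targets, 2 were called higher, a share near the 15.0% of all genes, and 5 lower (11.9% of all genes), with a median of 0.20. Tgfb2, which encodes a transforming growth factor, was lowest, at 48.4 and 49.3 CPM in control at day 0 against 14.2 and 16.8 CPM (mean over days −1.41, SE 0.11, adjusted p = 1.01e-05), and Rbms3 and Ccdc80 were lower and Asap1 higher (−0.96, −0.73 and 0.73, adjusted p = 0.0186, 0.000355 and 0.043). Of 19 genes of the Hippo kinase cascade and TEAD partners, 3 were higher and 1 lower (15.0% and 11.9% of all genes) with a median of 0.06, among them the kinase gene Taok1 (0.58, adjusted p = 0.0212) and Limd1 (−0.72, adjusted p = 0.00784). Larger rises were called at low levels for Wwc1 and Tead4 (4.10 and 1.39, adjusted p = 3.74e-06 and 0.000489), with means of 1.90 and 4.19 CPM. Of 22 tested of 25 actin and myosin regulators, 4 were higher and 3 lower with a median of −0.01, shares near the 15.0% and 11.9% of all genes. Limk2, which encodes a kinase that inactivates cofilin, was lower (−1.09, SE 0.12, adjusted p = 0.000123), and the monomer-binding thymosins split, with Tmsb4x higher and Tmsb10 lower (0.61 and −0.75, adjusted p = 0.0202 and 0.0333). Leaving out control day 3 replicate 2, the Hippo list had 5 higher and 7 lower and the regulator list 9 higher and 3 lower, where 24.9% and 22.2% of all genes were called. Cfl2, the cofilin of muscle, was higher with all 14 libraries (0.59, adjusted p = 0.00858) and without control day 3 replicate 2 (0.51, adjusted p = 0.000669).

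Since Acta2, Actg2, Tagln and Myl9 also mark smooth muscle, the markers of that cell type were read beside them. Of 7 smooth muscle markers, all in the files, Myocd, the myocardin gene, and Cnn1 were under 1 CPM in every library, and Myh11, the smooth muscle myosin heavy chain, lay between 0 and 1.2 CPM, at which level it was called higher (2.15, SE 0.60, adjusted p = 0.0256). Des, for desmin, ran from 0.964 to 11.4 CPM and was higher in the libraries labelled knockdown (1.85, SE 0.29, adjusted p = 0.00143), as were Lmod1 and Smtn (0.87 and 0.44, adjusted p = 0.00517 and 0.00815). The summed level of the 7 was 374 to 1300 CPM in control and 631 to 1670 CPM in the libraries labelled knockdown, most of it Acta2. Markers of skeletal muscle, fat and blood cells summed to at most 0.588, 0.359 and 1.18 CPM in any library. Pericyte markers summed to 29.5 to 107 CPM in control and 42.2 to 73.2 CPM in the libraries labelled knockdown. Nearly all of this was Cspg4 (28.9 to 106 CPM), with Rgs5 and Abcc9 at most 1.32 and 0.272 CPM. Chondrocyte markers summed to 46.4 to 266 CPM in control and 78.4 to 200.0 CPM in the libraries labelled knockdown, and endothelial ones to at most 2.38 CPM. The chondrocyte sum was nearly all Col2a1 (46.1 to 263 CPM), which was called higher on average (0.78, adjusted p = 0.000276). Acan, Col9a1 and Matn3 were at most 0.139, 1.51 and 2.34 CPM. The 8 osteoblast markers summed to 12400 to 27100 CPM in control and 11900 to 20900 CPM in the libraries labelled knockdown, a sum in which the collagen genes Col1a1 and Col1a2 weigh most. Single osteoblast markers differed in both directions on average: Ibsp, Alpl and Runx2 were lower (−3.57, −2.66 and −0.61, adjusted p = 1.21e-06, 6.78e-07 and 0.00208) and Bglap and Spp1 higher (2.39 and 0.60, adjusted p = 0.00873 and 0.012). The level of Bglap was low, at 0 to 27.1 CPM with a mean of 5.29 CPM, beside means of 1500 CPM for Ibsp and 52.4 CPM for Alpl. The part of any other cell type in the members' values was not tested beyond these levels.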

How the data were processed

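Polyadenylated RNA was made into strand-specific libraries, per the labels' protocols. The submitters' processing notes name TopHat2, bcl2fastq, edgeR and the build GRCm38, and the sources used here state no versions, counter, strand setting or annotation release. Raw read counts of 24346 genes and RPKM of 24340 were deposited by the authors. On 7174 genes the deposited RPKM followed from the counts, given 1 factor for a gene's length and 1 for depth, to within 0.436%.

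Counts were scaled by trimmed mean of M values (CPM) and tested with the robust, two-sided quasi-likelihood test of edgeR 4.0.16 in R 4.3.3, on 8 group means and all 14 libraries. A minimum of 10 counts in 2 or more libraries kept 13130 genes and removed 11216. In each of 7 comparisons p-values were adjusted by the Benjamini-Hochberg method across these genes, with calls at 0.05. The standard error is the log2 fold change over the root of F. The members and lists were chosen with earlier results of these data known. Named are all members and Macf1. From each list up to 4 genes are named, called on average with the largest change and a mean of at least 5 CPM. Wwc1 and Tead4, below that level, are named as well, chosen after their values were seen. Des, Smtn, Myh11, Myocd and single osteoblast, pericyte and chondrocyte markers are named as markers, chosen after their values were seen. Positions come from GENCODE release 21 of GRCm38. Genes with near-identical copies or an opposite-strand neighbour may share reads, such as Lats2, Actg1, Tpm4, Cnn3 and Tagln.

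No pair was a library deposited again: counts of replicate pairs differed by more than counting noise (chi-square per degree of freedom 12.9 to 178.5), which does not show that they came from separate cultures. Deviations of same-numbered libraries from their group means correlated across conditions at 0.234, 0.141 and 0.228 at days 0, 3 and 5. Between groups of other days they correlated at 0.0393 to 0.320. The same-day values lie within that range, so they do not show pairing within a day. All of these correlations were positive, so libraries of the same number deviated partly alike across groups and days. Replicate 1 also held more counts than replicate 2 in every pair. The main fit does not model such a shared effect, and its cause was not tested. A fit with the replicate number as a block, an effect shared by all groups, was run as an alternative. Alternatives were other scalings, filters, DESeq2 1.42.0, limma 3.58.1 on log2(RPKM + 1) and on log2(RPKM + 0.1), the block, and leaving out each library, day 3 or day 10. The script was tested on simulated data for 13130 genes: on average over days 91% of 2-fold and 100% of 4-fold changes were recovered, and at day 0, 18% and 92%. For each fold 100 genes were changed, all with a mean of at least 5 CPM and by the same fold on every day. No outlying library, dependence on length or replicate effect was simulated, so recovery in the real data may differ.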

Additional observations from a re-analysis of the deposited data

Results flagged for a closer look

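The change from day 0 to day 5 differed between the conditions, by a test of the difference itself, for 3 members. For Acta2 the difference was 2.35 on the log2 scale (adjusted p = 0.00374), from a fall of 1.70 in control and a value of 0.65 in the libraries labelled knockdown. For Tpm1 it was 2.11 (adjusted p = 0.0132), from −0.85 and 1.26. For Cyr61 it was 1.82 (adjusted p = 0.00516), from −1.09 and 0.74. All 3 passed without control day 3 replicate 2 as well (2.34, 2.10 and 1.81, adjusted p = 2.08e-06, 2.04e-05 and 3.21e-06). Leaving out each of the 12 replicated libraries in turn, Acta2 passed each time (adjusted p up to 0.0394). Tpm1 did not pass without any 1 of the 8 libraries of days 0 and 5 (adjusted p = 0.055 to 0.103), and Cyr61 did not pass without control day 5 replicate 2 or knockdown day 0 replicate 1 (adjusted p = 0.0518 and 0.0537).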

How the results depend on the processing

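Precision is limited by 2 libraries per group, and the spread of the control pair of day 3 enters every comparison. Without day 3 the average is a different one, over days 0 and 5 only, here and in the changes of sign given below. Members called then came to 10 lower on average, 3 higher and 17 lower at day 0, and 20 higher and 4 lower at day 5. For control day 5 against day 0 they came to 2 higher and 25 lower. The same change in the libraries labelled knockdown gave 9 higher and 3 lower, and the difference of these changes 20 higher. DESeq2 gave 9 lower at day 0, 13 higher and 3 lower at day 3, 1 lower at day 5, 5 higher for the libraries labelled knockdown with time and 6 higher for the difference. No filter on low counts gave 2 higher and 8 lower at day 0, 13 higher and 2 lower at day 3, 1 lower at day 5, 17 lower for control with time and 8 higher for the difference. With limma, control with time gave 6 lower at either pseudocount, and the libraries labelled knockdown with time 1 higher at log2(RPKM + 0.1). With the replicate number as a block, 2 were lower at day 3 and control with time gave 15 lower; calls it changed are given beside their genes.

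Leaving out each of the 12 replicated libraries in turn, members called higher ranged from 9 to 20 on average, 0 to 3 at day 0, 0 to 20 at day 3, 2 to 19 at day 5, 0 to 2 for control with time, 0 to 9 for the libraries labelled knockdown with time and 1 to 20 for the difference. Those called lower ranged from 1 to 18, 0 to 7, 0 to 4, 1 to 24, 0 to 3 and 0 to 1 in the last 6 of these. A group left with 1 library is assumed to vary like the others. The count of members on 1 side at each day was 10, and 8 to 15 over its alternatives. The cause of these changes was not tested.

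On average over days, values that changed sign were those of Ctgf (−0.48 without day 3, −0.006 without day 10, −0.10 to 0.22 leaving out 1 library), Cyr61 (0.031 and 0.032 with limma at pseudocounts 1 and 0.1), Amotl2 (−0.29, −0.01, and −0.13 to 0.23), Lats2 (limma 0.10 and 0.17, and −0.28 to 0.44), Actb (−0.471 to 0.054), Actg1 (limma 0.075 at either, and −0.124 to 0.076), Cnn2 (0.017 with no filter, limma 0.10 at either, and −0.14 to 0.15) and Tpm4 (−0.20 without day 3, and −0.10 to 0.31). At day 3 they were those of Thbs1 (−1.53 to 0.75), Actg1 (−0.17 to 0.44), Cnn2 (−0.25 to 0.60), Myl6 (limma 0.23 at either, and −0.90 to 0.87), Myh10 (limma 0.35 and 0.37, 0.016 with the block, and −0.60 to 0.87) and Cfl1 (−0.008 with upper quartile scaling, and −0.25 to 0.46). Over all pairs of 1 of the 163 values of single members with 1 alternative, 2921 pairs kept direction and call, 344 gained and 256 lost a call, and 41 changed sign.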
